A study of Homo sapiens with 12 samples.

Results

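The 41 genes described here encode proteins of homologous recombination, of the Fanconi anaemia pathway and of the DNA damage checkpoint, with MSH6 and PARP1 beside them. They were picked by name out of 26485 genes in a table of RNA sequencing counts, and all 41 names were found, H2AFX and MRE11A under the older symbols of H2AX and MRE11. RNA was measured in HEL cells, an established human erythroleukemia line of acute myeloid leukemia that carries founding mutations in JAK2 and P53 per the study. The study describes the P53 mutation as a loss of function and found both mutations in all groups. The cells had been labelled with genetic barcodes, so that each culture was a mixture of tagged clones of 1 line and no patient cells were involved. Untreated cells grown with the solvent DMSO formed the group NT (n = 2). The other groups were relapses, that is cultures that had regrown after a single treatment of 72 to 74 h. Doxo relapses (n = 3) had received 1.8 µM doxorubicin, an anthracycline that poisons topoisomerase II and breaks DNA. Doxo+Cyta relapses (n = 3) had received the same dose with 6 µM cytarabine, a nucleoside analogue that stops DNA synthesis. Doxo+Cyta+DAC relapses (n = 4) were given decitabine at 0.1 µM on top of both drugs, a cytidine analogue that is built into DNA and traps its methyltransferases. After treatment, dead cells were removed on a density gradient, and the live cells grew for about 30 days until they again reached the number seeded. The values therefore describe drug-free cells at relapse and not the response to the drugs in the first days.

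Homologous recombination repairs a broken chromosome by copying the sister chromatid: the break is sensed and its ends are cut back, BRCA2 prepares the exposed strand for exchange, further proteins and RAD54 motors help it to find and invade the sister, and helicases and nucleases take the joined molecules apart. The Fanconi anaemia pathway handles crosslinks between the strands: a core complex of FANC proteins attaches ubiquitin to FANCD2 and FANCI, which then direct incision and repair at stalled replication forks. The kinases ATM and ATR signal breaks and stalled forks to CHEK2 and CHEK1, and chromatin proteins such as H2AX, MDC1 and 53BP1 hold the signal at the lesion. Many of these genes are expressed most in S phase, when the sister chromatid is available.

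Total counts per library lay between 12763582 and 19106235, and a level of 3 counts, the lowest that was read as detection, corresponded to between 0.154 and 0.238 CPM, the count relative to the scaled size of its library, and covers counting error only. The 41 genes took between 0.223% and 0.345% of all counts. All 41 passed the filter on low counts, and the lowest count of any of them in any library was 32, for XRCC2 in a Doxo library. Of 12 genes of the erythroid and megakaryocytic lineage of this line, 11 were expressed, with the platelet receptor subunit GP1BB at 0 counts in every library. Of 5 T cell genes, 1 passed the filter, CD4, and their summed level was between 15.7 and 21.3 CPM in NT, 36.4 and 53.2 in Doxo, 22.6 and 30.0 in Doxo+Cyta and 7.22 and 19.4 in Doxo+Cyta+DAC, with CD3D, CD3E and CD3G at or near 0. Of 5 monocyte genes, 3 passed, LYZ, ITGAM and CSF1R, with sums between 46.2 and 47.8, 54.2 and 65.0, 61.4 and 71.4, and 44.7 and 54.3 CPM in the same order, and with FCN1 at 0 and CD14 near 0. Of 4 B cell genes, 1 passed, CD79A, with sums between 3.75 and 5.35, 2.33 and 3.35, 3.36 and 6.07, and 0.963 and 1.73 CPM, and with MS4A1 at 0. Of 6 fibroblast or epithelial genes, 1 passed, and their sum was at most 1.73 CPM in any library. The part of these genes in the results was not tested. Doxo replicate 4 and Doxo+Cyta replicate 20 stood apart from the other libraries of their groups: the chi-square statistic per degree of freedom between libraries was 25.7 and 28.1 for Doxo 4 against its partners and 2.97 between those, and 44.4 and 46.0 for Doxo+Cyta 20 against 7.02. Within its group, Doxo 4 was the highest library for 29 of the 41 genes, and Doxo+Cyta 20 the lowest for 22. Within groups, no pair of libraries agreed within sampling noise, and pairs across groups were not compared.

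The 41 genes were mostly higher in Doxo+Cyta+DAC relapses than in either relapse without decitabine. Relative to Doxo+Cyta, 26 genes were called higher and 2 lower at an adjusted p under 0.05, beside 29.8% and 30.5% of the 14164 genes tested. Relative to Doxo, 28 were called higher and 3 lower, beside 29.1% and 30.4% of all tested genes. Log2 fold changes are given below as log2 ratios ± SE from the model. The median over the 41 genes was 0.60 and 0.63 in these comparisons, and that over all tested genes was 0.00025 and -0.0055. Both comparisons use the same 4 Doxo+Cyta+DAC libraries, so that the second count does not add to the first. Relative to NT, 14 genes were called higher and 3 lower, beside 24.9% and 23.7%, with a median of 0.33. At a fold over 2 and an adjusted p under 0.01, fewer were called: 8 were higher and 1 lower relative to Doxo+Cyta (10.2% and 13.1% of tested genes), 6 and 1 relative to Doxo (9.71% and 11.9%), and 1 and 1 relative to NT (6.9% and 9.28%). The libraries did not overlap in 26 higher genes and 1 lower gene relative to Doxo+Cyta (29% and 28.2% of tested genes), in 28 and 3 relative to Doxo (29.7% and 30.2%) and in 22 and 7 relative to NT (34.2% and 32.9%). Relative to Doxo, CHEK2 was without overlap but not called, and BRCA1 was called higher although its libraries overlapped. Without Doxo 4 and Doxo+Cyta 20, a choice made after seeing the data, the counts were 29 higher and 3 lower relative to Doxo+Cyta, 30 and 4 relative to Doxo, and 21 and 4 relative to NT. In that fit 66.8%, 67.9% and 60.7% of all tested genes were called in either direction, so that the larger counts are no result about the 41 genes. The comparison with NT rests on few untreated libraries: the median over the 41 genes was 0.26 without NT 1 and 0.39 without NT 2. In these fits fewer of all tested genes were called than with both NT libraries. The calls against NT that ended when 1 NT library was left out were those of BARD1, RAD51C, WRN, USP1, CHEK1 and H2AFX (either NT library) and of FANCB and RAD50 (NT 2). Relative to Doxo, those of BRCA1 and FANCG ended without Doxo 5 or Doxo 6 and that of USP1 without Doxo 4 (adjusted p = 0.0659). The call of WRN relative to Doxo ended in 11 of 19 alternatives, among them each fit without a Doxo library, and relative to Doxo+Cyta that of RAD51D ended without Doxo+Cyta 19 (adjusted p = 0.0563).

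**Figure D1:**
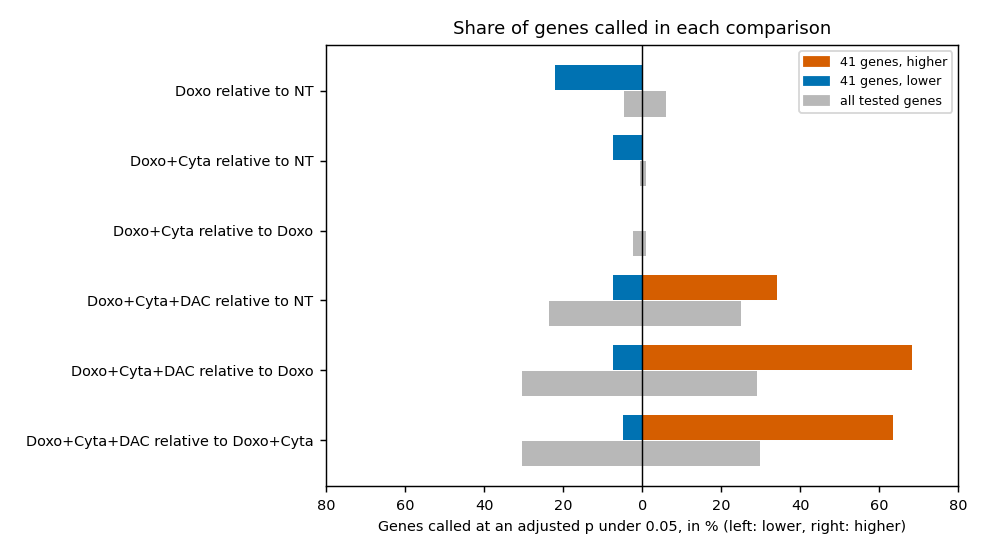
Share of genes called higher (right) or lower (left) at an adjusted p under 0.05 in each of the 6 comparisons, in %, for the 41 genes (coloured bars) and for all 14164 tested genes (grey bars). Relative to Doxo+Cyta, 63.4% of the 41 genes and 29.8% of all tested genes were called higher in Doxo+Cyta+DAC. Relative to NT, 22% of the 41 genes and 4.63% of all tested genes were called lower in Doxo.

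**Figure D2:**
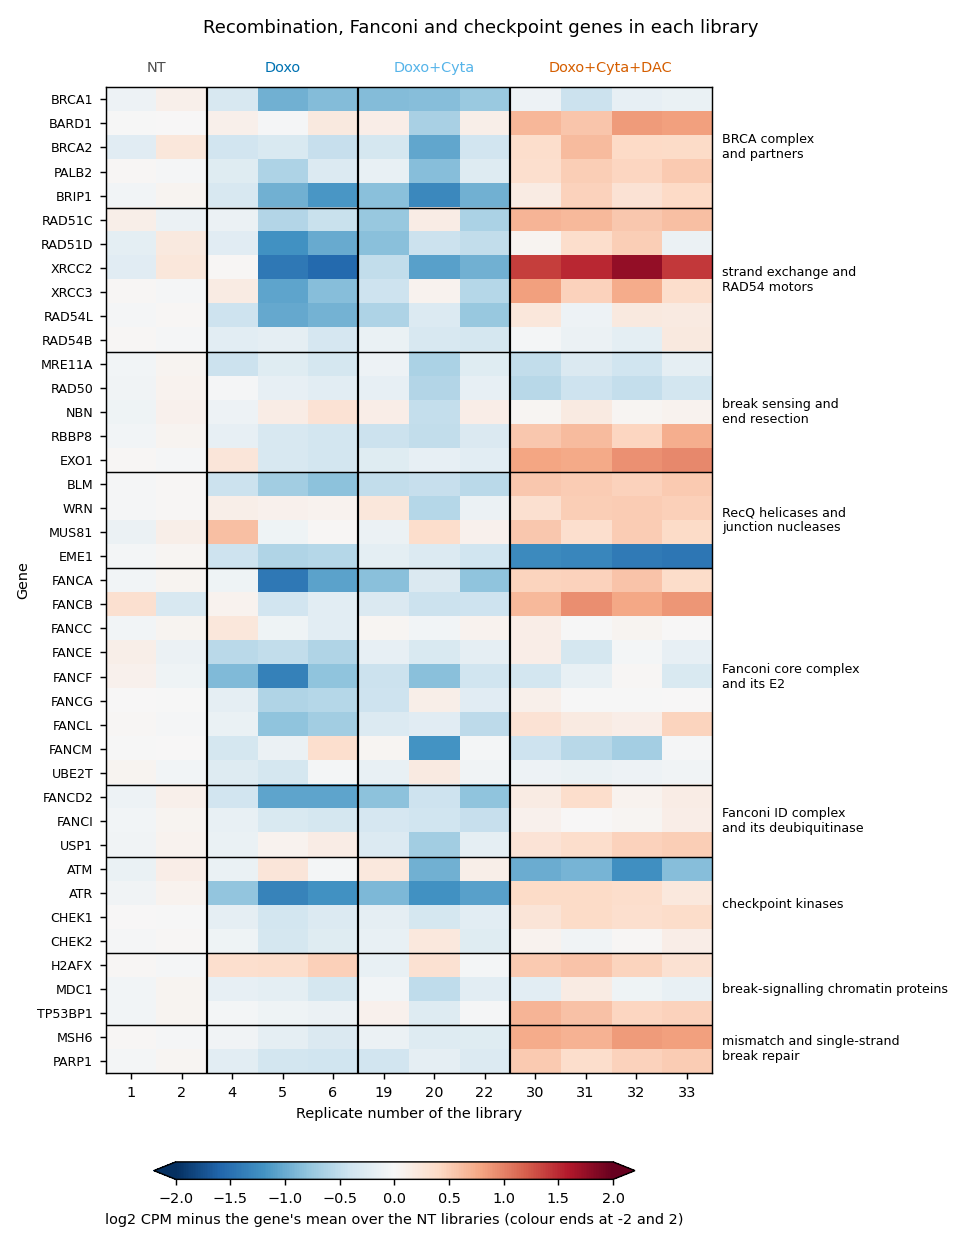
Level of each of the 41 genes (rows, grouped by role) in each of the 12 libraries (columns, grouped by treatment), as log2 CPM minus the gene's mean log2 CPM over the NT libraries. XRCC2 is the deepest red and EME1 the deepest blue across the 4 Doxo+Cyta+DAC libraries, and ATR is blue in all 6 relapse libraries without decitabine.

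Some sequence letters, which the choice of genes did not use, were more frequent at the starts of these genes than at those of all tested genes. RefSeq windows of 300 bases (250 before the start and 50 after, GRCh38.p14) were matched to 37 of the 41 genes, and the core letters bound by E2F factors, the regulators of S-phase genes, were searched as TTNNCGC, with NN being CC, CG, GC or GG, on both strands. They occurred in 21 of the 37 windows (56.8%), beside 20.4% of 10908 tested genes with a window. Among genes called higher relative to Doxo+Cyta, 15 of 24 windows held the letters, and among the others 6 of 13. The letters TTTGAA of the CHR element, known from G2/M genes, were in 6 of 37 windows (16.2%, beside 9.72%), and CCAAT in 20 (54.1%, beside 36.9%). The median GC content of the windows was 64.3%, beside 65.0% for tested genes. A match describes letters and was not tested as a binding site. The sequences from 90 bases before to 30 after the start are given for the genes on which the results turn, 5′ to 3′ on the strand of the gene, with the E2F letters in capitals.
XRCC2 (chr7:152676112-152676231, minus strand): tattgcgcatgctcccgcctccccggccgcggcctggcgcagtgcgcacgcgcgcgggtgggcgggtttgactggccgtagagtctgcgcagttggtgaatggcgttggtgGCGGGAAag
BRIP1 (chr17:61863499-61863618, minus strand): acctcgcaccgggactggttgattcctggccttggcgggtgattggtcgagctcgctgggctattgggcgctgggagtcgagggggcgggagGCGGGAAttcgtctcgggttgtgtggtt
EXO1 (chr1:241848114-241848233, plus strand): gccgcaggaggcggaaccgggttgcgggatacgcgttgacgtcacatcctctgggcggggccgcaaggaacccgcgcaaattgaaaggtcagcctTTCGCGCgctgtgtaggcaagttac
BLM (chr15:90717256-90717375, plus strand): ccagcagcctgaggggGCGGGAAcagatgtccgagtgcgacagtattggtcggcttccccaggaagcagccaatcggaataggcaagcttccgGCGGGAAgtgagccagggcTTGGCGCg
ATR (chr3:142578704-142578823, minus strand): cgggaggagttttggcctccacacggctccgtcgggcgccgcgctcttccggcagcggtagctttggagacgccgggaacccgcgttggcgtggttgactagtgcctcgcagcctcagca
EME1 (chr17:50373139-50373258, plus strand): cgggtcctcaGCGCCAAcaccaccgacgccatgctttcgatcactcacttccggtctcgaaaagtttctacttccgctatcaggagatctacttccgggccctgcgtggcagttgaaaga
ATM (chr11:108222977-108223096, plus strand): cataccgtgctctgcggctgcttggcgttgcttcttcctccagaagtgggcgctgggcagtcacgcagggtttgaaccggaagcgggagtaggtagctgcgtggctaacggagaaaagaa
The letters lay just after the start in XRCC2, BRIP1 and EXO1 (positions 22, 3 and 6, counted from 1 at the start), and at positions -74, 4 and 23 in BLM. EME1, which was lower in Doxo+Cyta+DAC relapses, held them at position -80. Neither ATM, which was lower there, nor ATR, which was higher, held them in this window.

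All 5 genes of the BRCA complex and its partners were called higher in Doxo+Cyta+DAC relapses than in Doxo+Cyta and than in Doxo. BRIP1 (chromosome 17, 61679186 to 61863559), the helicase FANCJ that binds BRCA1, stood at 21.9 and 23.9 CPM in NT, 18.4, 11.7 and 10.2 in Doxo, 12.9, 9.41 and 11.7 in Doxo+Cyta and 25.7, 31.6, 27.9 and 30.0 in Doxo+Cyta+DAC. Its lowest Doxo+Cyta+DAC library lay above every other library, and its lowest levels were in the relapses without decitabine. The difference from Doxo+Cyta was 2.54-fold (log2 ratio 1.34 ± 0.19, adjusted p = 3.52e-05), and that from NT was not called (log2 ratio 0.33 ± 0.20, adjusted p = 0.199). BRCA2 (chromosome 13, 32315480 to 32399672), which prepares the resected strand for exchange, stood at 14.2 and 19.4 CPM in NT, 12.7, 13.4 and 12.1 in Doxo, 13.0, 8.07 and 12.7 in Doxo+Cyta and 21.1, 25.7, 22.0 and 21.8 in Doxo+Cyta+DAC. Every Doxo+Cyta+DAC library was above every NT library, by a small margin, and above every relapse without decitabine (log2 ratio 1.00 ± 0.17, adjusted p = 0.000204 relative to Doxo+Cyta), and the difference from NT was not called (log2 ratio 0.43 ± 0.19, adjusted p = 0.079). BARD1, the partner of BRCA1 in a ubiquitin ligase, was the member of this group called higher than NT (log2 fold change 0.73, and 0.82 relative to Doxo+Cyta), and leaving out NT 1 or NT 2 ended that call (adjusted p = 0.0579 and 0.0522). PALB2, which links BRCA1 to BRCA2, was 0.84 above Doxo+Cyta on the log2 scale and 0.45 above NT, the latter not called. BRCA1 itself, with a log2 fold change of 0.62 over Doxo+Cyta, did not pass NT: its difference was -0.21 and not called (adjusted p = 0.315), with 62.8 ± 6.15 CPM (SD, n = 4) in Doxo+Cyta+DAC and 72.4 ± 7.49 CPM (SD, n = 2) in NT. Part of the BRCA1 exons has a near-identical copy in a neighbouring pseudogene, and reads from there could be counted to either.

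Among 6 genes of strand exchange, 5 were called higher relative to each relapse without decitabine, and XRCC2 had the largest log2 fold change of all 41 genes relative to Doxo+Cyta. XRCC2 (chromosome 7, 152646502 to 152676165), a member of the BCDX2 complex that assists strand exchange, stood at 5.04 and 6.97 CPM in NT, 6.00, 2.21 and 2.02 in Doxo, 4.205, 2.80 and 3.06 in Doxo+Cyta and 15.4, 16.9, 20.2 and 15.8 in Doxo+Cyta+DAC. Every Doxo+Cyta+DAC library held more than each of the other 8 libraries, and the Doxo libraries were uneven, with replicate 4 at the level of NT. The difference was 5.07-fold relative to Doxo+Cyta (log2 ratio 2.34 ± 0.31, adjusted p = 2.3e-05), 5.06-fold relative to Doxo and 2.85-fold relative to NT (log2 ratio 1.51 ± 0.34, adjusted p = 0.00249). RAD51C (chromosome 17, 58692573 to 58734342), which belongs to that complex and to the complex with XRCC3, stood at 25.7 and 21.7 CPM in NT, 21.8, 15.7 and 17.4 in Doxo, 14.0, 26.2 and 15.3 in Doxo+Cyta and 37.8, 37.1, 34.2 and 36.0 in Doxo+Cyta+DAC. All Doxo+Cyta+DAC libraries were above all others, and Doxo+Cyta 20 was far above its partners (log2 ratio 0.97 ± 0.19, adjusted p = 0.000651 relative to Doxo+Cyta, log2 ratio 0.61 ± 0.22, adjusted p = 0.0317 relative to NT). RAD51D and XRCC3, from the same complexes, differed from Doxo+Cyta by 0.79 and 0.89 on the log2 scale and from NT by 0.21 and 0.61, neither of the latter called, and 16.4% of the RAD51D exon bases lie within a readthrough gene that spans it. Of the motor proteins that drive strand exchange, RAD54L was 0.66 above Doxo+Cyta and 0.13 from NT, the latter not called. RAD54B was not called in any comparison (0.23 relative to Doxo+Cyta, -0.034 relative to NT), and 63.7% of its exon bases are shared with FSBP on the same strand, and featureCounts by default leaves out fragments that overlap both. The ratio of XRCC2 to RAD54B counts ran from 0.783 to 1.31 in the 4 Doxo+Cyta+DAC libraries and from 0.143 to 0.403 in the other 8.

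The genes that sense and resect breaks were split. RBBP8 (chromosome 18, 22933332 to 23026486), the CtIP protein that starts end resection, stood at 39.7 and 42.6 CPM in NT, 36.5, 32.9 and 31.9 in Doxo, 30.7, 29.2 and 33.8 in Doxo+Cyta and 60.03, 63.9, 55.5 and 68.2 in Doxo+Cyta+DAC. Its 4 Doxo+Cyta+DAC values were above all others (log2 ratio 0.99 ± 0.11, adjusted p = 4.67e-06 relative to Doxo+Cyta, log2 ratio 0.59 ± 0.12, adjusted p = 0.00153 relative to NT). EXO1 (chromosome 1, 241848191 to 241889939), the exonuclease that extends resection, stood at 34.5 and 33.1 CPM in NT, 39.7, 27.0 and 26.1 in Doxo, 28.6, 30.2 and 29.1 in Doxo+Cyta and 58.5, 56.9, 63.4 and 65.7 in Doxo+Cyta+DAC. It was 2.09-fold higher than in Doxo+Cyta and 1.81-fold higher than in NT, again without overlap (log2 ratio 1.06 ± 0.14, adjusted p = 2.01e-05 and log2 ratio 0.86 ± 0.16, adjusted p = 0.000648). The 3 subunits of the MRN complex, which holds the broken ends and activates ATM, were not called higher in any comparison. RAD50 (chromosome 5, 132556924 to 132644621), the coiled-coil subunit, stood at 42.2 and 47.0 CPM in NT, 43.8, 39.9 and 38.4 in Doxo, 39.7, 29.8 and 39.6 in Doxo+Cyta and 30.3, 33.6, 32.2 and 34.5 in Doxo+Cyta+DAC. It was lowest in Doxo+Cyta+DAC and in Doxo+Cyta 20, and was called lower than in NT (log2 ratio -0.45 ± 0.13, adjusted p = 0.0128) and than in Doxo (log2 ratio -0.32 ± 0.12, adjusted p = 0.0338) but not than in Doxo+Cyta (log2 ratio -0.16 ± 0.12, adjusted p = 0.278). Single libraries decided these calls: against NT, leaving out NT replicate 2 gave an adjusted p of 0.133. Against Doxo, the adjusted p was 0.0976, 0.0681, 0.0855 and 0.0688 without Doxo 4, Doxo 5, Doxo+Cyta+DAC 30 or Doxo+Cyta+DAC 32, and leaving out Doxo+Cyta 20 gave a call against Doxo+Cyta (adjusted p = 0.0274). MRE11A, the nuclease of the complex, differed by -0.025 from Doxo+Cyta and by -0.33 from NT, and NBN, its regulatory subunit, by 0.13 and 0.083, with no call for either gene. In some alternatives MRE11A was called lower than NT, and in others it was not. Among the former were the fit of only the groups compared (-0.37, adjusted p = 0.00975) and that without Doxo+Cyta 20 (-0.36, adjusted p = 0.0107).

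Of the helicases and nucleases that resolve joined DNA, BLM and WRN were called higher and EME1 lower. BLM (chromosome 15, 90717327 to 90815462), the Bloom syndrome helicase, stood at 45.5 and 46.7 CPM in NT, 34.1, 28.4 and 26.1 in Doxo, 32.8, 33.4 and 31.8 in Doxo+Cyta and 66.9, 65.8, 63.5 and 66.3 in Doxo+Cyta+DAC. The Doxo+Cyta+DAC libraries were tight and above NT, and both relapses without decitabine were below NT (log2 ratio 1.00 ± 0.11, adjusted p = 3.1e-06 relative to Doxo+Cyta, log2 ratio 0.51 ± 0.12, adjusted p = 0.0032 relative to NT). EME1 (chromosome 17, 50373220 to 50381459), a partner with which MUS81 cuts joined molecules, stood at 52.8 and 55.7 CPM in NT, 40.9, 35.7 and 36.4 in Doxo, 47.5, 45.0 and 41.1 in Doxo+Cyta and 22.5, 21.9, 20.4 and 20.0 in Doxo+Cyta+DAC. It ran the other way, with all 4 Doxo+Cyta+DAC libraries below all others. It was 2.10-fold lower than in Doxo+Cyta (log2 ratio -1.07 ± 0.10, adjusted p = 1.37e-06), 1.78-fold lower than in Doxo and 2.56-fold lower than in NT (log2 ratio -1.36 ± 0.11, adjusted p = 1.7e-06), and these calls held in each alternative, with a log2 fold change between -1.16 and -1.03 relative to Doxo+Cyta. A stretch of 9.64% of its exon bases overlaps LRRC59 on the other strand, and the counts do not use strand. MUS81, the nuclease, was not called (0.33 relative to Doxo+Cyta, 0.44 relative to NT), so that the ratio of EME1 to MUS81 counts was between 0.308 and 0.374 in Doxo+Cyta+DAC and between 0.581 and 1.23 in the other libraries, without overlap. WRN, the Werner syndrome helicase, differed by 0.57 from Doxo+Cyta and by 0.45 from NT, and its call against NT was lost in 11 of 19 alternatives. Relative to Doxo+Cyta, WRN kept its call throughout.

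Of 9 genes of the Fanconi core complex and its E2 enzyme, 3 were called higher relative to Doxo+Cyta (33.3%, near the 29.8% of all tested genes), 6 relative to Doxo (66.7%, beside 29.1%) and 1 relative to NT (11.1%, below the 24.9%). FANCB (chromosome X, 14843407 to 14873062), a subunit of the catalytic module with FANCL, stood at 5.40 and 3.45 CPM in NT, 4.54, 3.32 and 3.72 in Doxo, 3.52, 3.202 and 3.24 in Doxo+Cyta and 6.74, 8.25, 7.35 and 8.00 in Doxo+Cyta+DAC. It was among the least abundant of the 41 genes, and every Doxo+Cyta+DAC library was above every other (log2 ratio 1.19 ± 0.19, adjusted p = 0.00013 relative to Doxo+Cyta, log2 ratio 0.77 ± 0.21, adjusted p = 0.00922 relative to NT). FANCA (chromosome 16, 89737551 to 89816657), the subunit most often mutated in Fanconi anaemia, stood at 21.7 and 23.6 CPM in NT, 21.2, 8.38 and 10.8 in Doxo, 12.6, 18.5 and 13.0 in Doxo+Cyta and 30.7, 31.0, 33.5 and 29.3 in Doxo+Cyta+DAC. The lowest Doxo+Cyta+DAC library lay above the highest NT library, and Doxo 4 was near NT while its partners were lower (log2 ratio 1.09 ± 0.25, adjusted p = 0.00175 relative to Doxo+Cyta), with no call against NT (log2 ratio 0.46 ± 0.27, adjusted p = 0.181). ZNF276 on the other strand overlaps 22.9% of the FANCA exon bases. FANCL, the ubiquitin ligase subunit, was 0.60 above Doxo+Cyta, a call, and 0.26 above NT, not a call, and 26.1% of its exon bases overlap VRK2. FANCE, FANCF and FANCG, the adaptor and scaffold subunits, were called higher relative to Doxo (0.45, 0.81 and 0.46) but not relative to Doxo+Cyta (0.13, 0.35 and 0.18) or NT (-0.10, -0.19 and 0.023). No call was made for FANCC (0.031 relative to Doxo+Cyta and 0.05 relative to NT), for the DNA translocase FANCM (-0.11 and -0.40) or for UBE2T, the E2 enzyme that supplies the ubiquitin (-0.10 and -0.10).

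The target of the core complex and the enzyme that reverses the mark were called higher relative to both relapses without decitabine. USP1 (chromosome 1, 62436304 to 62451804), the deubiquitinase that removes ubiquitin from FANCD2, stood at 154 and 168 CPM in NT, 146, 169 and 178 in Doxo, 133, 99.0 and 142.1 in Doxo+Cyta and 194, 206, 222 and 225 in Doxo+Cyta+DAC. The Doxo+Cyta+DAC libraries lay above all others, and Doxo+Cyta 20 was far below its partners (log2 ratio 0.76 ± 0.12, adjusted p = 0.000134 relative to Doxo+Cyta, log2 ratio 0.40 ± 0.14, adjusted p = 0.0318 relative to NT). FANCI (chromosome 15, 89243963 to 89317131), a subunit of the ID clamp, stood at 200 and 214 CPM in NT, 187, 167 and 162 in Doxo, 163, 157 and 151 in Doxo+Cyta and 219, 207, 212 and 226 in Doxo+Cyta+DAC. It was 1.38-fold higher than with Doxo+Cyta (log2 ratio 0.46 ± 0.087, adjusted p = 0.000397), while NT and Doxo+Cyta+DAC overlapped (log2 ratio 0.064 ± 0.10, adjusted p = 0.611). FANCD2, the other part of the clamp, was 0.86 above Doxo+Cyta on the log2 scale and 0.18 from NT, the latter not called. FANCD2 has partial pseudogene copies, and FANCI shares 9.08% of its exon bases with POLG on the other strand.

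The kinases differed from each other. ATR (chromosome 3, 142449235 to 142578826), which responds to stalled forks, stood at 27.6 and 30.7 CPM in NT, 16.8, 11.5 and 12.6 in Doxo, 15.5, 12.6 and 13.6 in Doxo+Cyta and 38.0, 38.0, 37.1 and 33.8 in Doxo+Cyta+DAC. The relapses without decitabine held less than NT in all 6 libraries, and Doxo+Cyta+DAC held more than NT in all 4. The difference was 2.64-fold relative to Doxo+Cyta (log2 ratio 1.40 ± 0.14, adjusted p = 2.35e-06) and 2.70-fold relative to Doxo (log2 ratio 1.43 ± 0.14, adjusted p = 2.59e-06), and that from NT was not called (log2 ratio 0.34 ± 0.16, adjusted p = 0.0901). CHEK1 (chromosome 11, 125625136 to 125676255), the kinase that ATR activates, stood at 177 and 176 CPM in NT, 156, 137 and 146 in Doxo, 157, 139 and 152 in Doxo+Cyta and 212, 230, 224 and 229 in Doxo+Cyta+DAC. It followed the same order with smaller differences (log2 ratio 0.58 ± 0.086, adjusted p = 5.44e-05 relative to Doxo+Cyta, log2 ratio 0.34 ± 0.10, adjusted p = 0.0111 relative to NT). ATM (chromosome 11, 108222832 to 108369099), which responds to breaks, stood at 84.6 and 103 CPM in NT, 84.9, 111 and 90.9 in Doxo, 108, 48.1 and 102 in Doxo+Cyta and 46.7, 49.1, 39.99 and 51.9 in Doxo+Cyta+DAC. The Doxo+Cyta+DAC libraries were below all others except Doxo+Cyta 20, which lay among them. ATM was 2.04-fold lower than in Doxo (log2 ratio -1.03 ± 0.22, adjusted p = 0.000991), 2.00-fold lower than in NT (log2 ratio -0.998 ± 0.24, adjusted p = 0.00353) and 1.84-fold lower than in Doxo+Cyta (log2 ratio -0.88 ± 0.22, adjusted p = 0.00295), the last with a log2 fold change of -1.17 (adjusted p = 5.7e-06) when Doxo+Cyta 20 was left out. CHEK2, the kinase that ATM activates, was not called (0.085 relative to Doxo+Cyta, 0.039 relative to NT), and several partial copies of CHEK2 in the genome could divert its reads. The ratio of ATR to ATM counts was between 0.652 and 0.928 in Doxo+Cyta+DAC, between 0.299 and 0.326 in NT and between 0.104 and 0.262 in the other relapses. ATM has 13147 exon bases, and the median log2 fold change of the 893 tested genes with at least 8000 was -0.11 relative to Doxo, -0.068 relative to NT and 0.055 relative to Doxo+Cyta.

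Of the chromatin proteins that mark and read breaks, TP53BP1 and H2AFX were called higher than in Doxo+Cyta and than in NT. TP53BP1 (chromosome 15, 43407214 to 43510509), which encodes 53BP1 and restrains resection, stood at 61.4 and 65.6 CPM in NT, 61.5, 59.5 and 58.3 in Doxo, 67.2, 53.0 and 62.7 in Doxo+Cyta and 101, 94.8, 85.5 and 87.3 in Doxo+Cyta+DAC. All Doxo+Cyta+DAC libraries were above all others, and the other groups overlapped (log2 ratio 0.60 ± 0.11, adjusted p = 0.000264 relative to Doxo+Cyta, log2 ratio 0.54 ± 0.12, adjusted p = 0.00246 relative to NT). H2AFX (chromosome 11, 119093875 to 119095467), the histone variant that is phosphorylated at breaks, stood at 216 and 210 CPM in NT, 267, 271 and 296 in Doxo, 192, 264 and 207 in Doxo+Cyta and 304, 315, 288 and 261 in Doxo+Cyta+DAC. Doxo and Doxo+Cyta+DAC were both high and overlapped (log2 ratio 0.071 ± 0.11, adjusted p = 0.605), while NT and 2 of 3 Doxo+Cyta libraries were lower (log2 ratio 0.40 ± 0.11, adjusted p = 0.00667 relative to Doxo+Cyta, log2 ratio 0.46 ± 0.13, adjusted p = 0.0094 relative to NT). MDC1, the adaptor that binds phosphorylated H2AX, was not called (0.19 relative to Doxo+Cyta, -0.063 relative to NT), and its counts add up copies on 7 alternate contigs.

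MSH6 and PARP1 were called higher in all comparisons with Doxo+Cyta+DAC. MSH6 (chromosome 2, 47783082 to 47806953), which recognizes mismatches, stood at 108 and 106 CPM in NT, 102, 95.0 and 88.0 in Doxo, 98.9, 89.3 and 90.4 in Doxo+Cyta and 179, 174, 195 and 188 in Doxo+Cyta+DAC. The difference was 1.98-fold relative to Doxo+Cyta (log2 ratio 0.99 ± 0.092, adjusted p = 1.04e-06) and 1.71-fold relative to NT (log2 ratio 0.78 ± 0.11, adjusted p = 6.07e-05), with a wide gap between the groups. PARP1 (chromosome 1, 226360691 to 226408100), the sensor of single-strand breaks, stood at 458 and 483 CPM in NT, 406, 366 and 357 in Doxo, 360, 415 and 390 in Doxo+Cyta and 678, 598, 646 and 669 in Doxo+Cyta+DAC. It was also above every other library in each Doxo+Cyta+DAC library (log2 ratio 0.74 ± 0.089, adjusted p = 9.46e-06 relative to Doxo+Cyta, log2 ratio 0.46 ± 0.10, adjusted p = 0.00207 relative to NT).

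**Figure D3:**
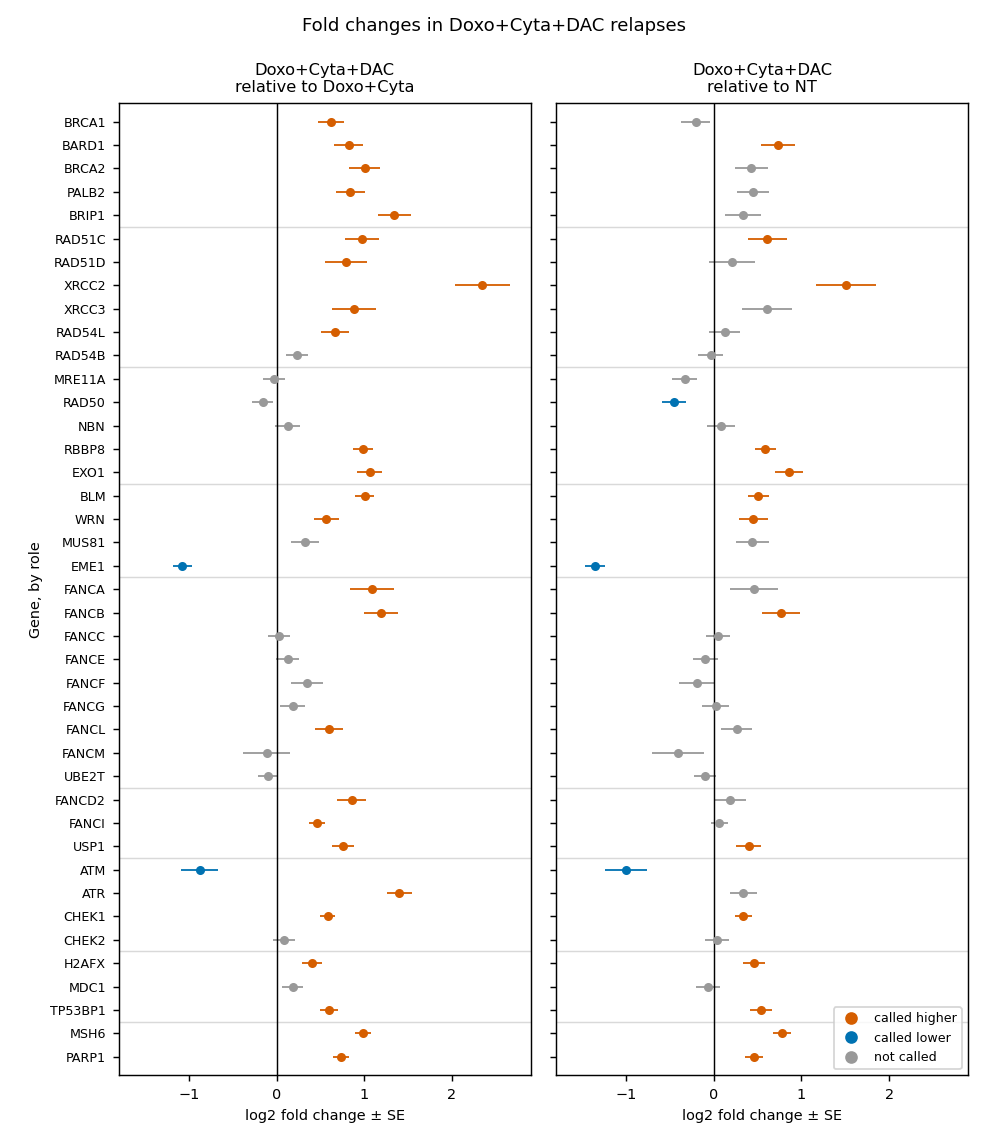
Log2 fold change of each of the 41 genes in Doxo+Cyta+DAC against Doxo+Cyta (left) and against NT (right), as a point with its SE from the edgeR model. Orange points were called higher, blue points lower and grey points not called at an adjusted p under 0.05. XRCC2 lies farthest to the right on both sides (2.34 and 1.51) and EME1 farthest to the left (-1.07 and -1.36).

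**Figure D4:**
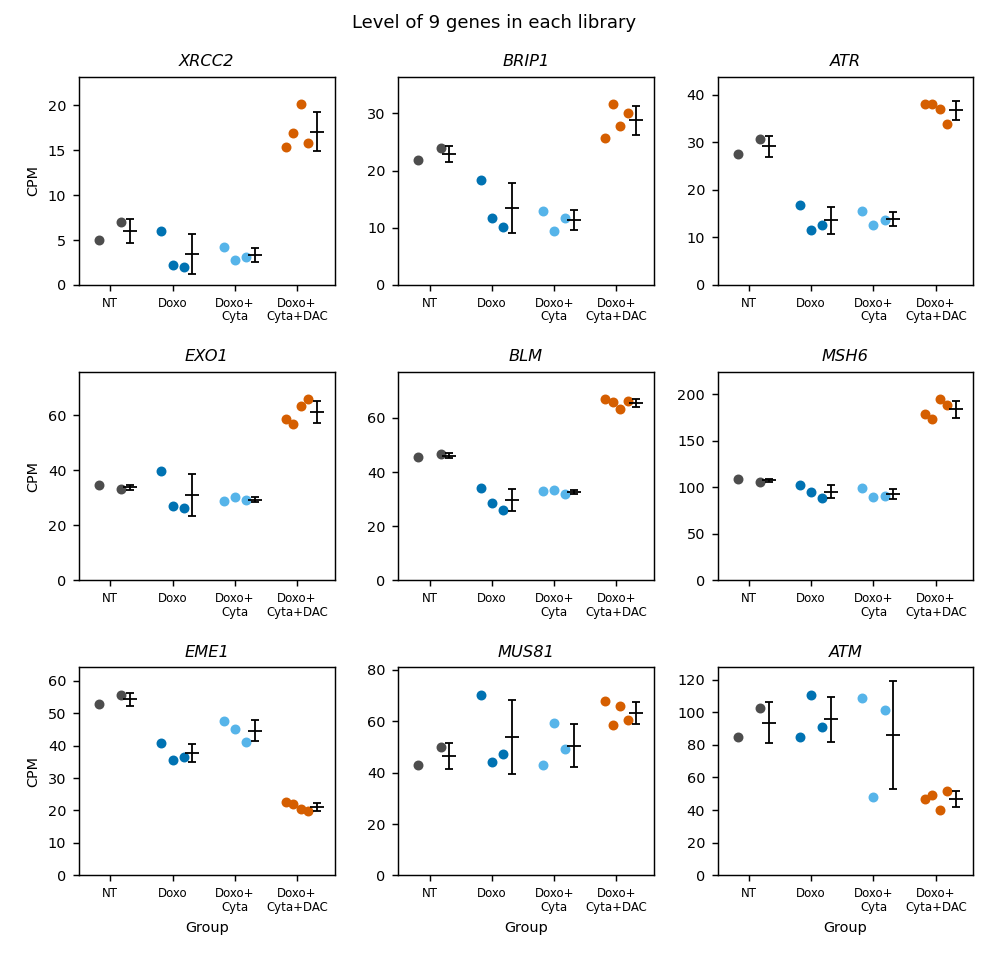
Level of 9 genes in each library, in CPM on axes that start at 0, by group (NT n = 2, Doxo n = 3, Doxo+Cyta n = 3, Doxo+Cyta+DAC n = 4). Points are libraries, and black marks give the mean and SD of a group. XRCC2, BRIP1, ATR, EXO1, BLM and MSH6 are highest in Doxo+Cyta+DAC, EME1 is lowest there, MUS81 was not called in any comparison, and 1 Doxo+Cyta library of ATM lies with the Doxo+Cyta+DAC libraries.

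With all 12 libraries in the fit, none of the 41 genes was called higher in a relapse without decitabine than in NT, and ATR, BRIP1 and BRCA1 were called lower in both Doxo and Doxo+Cyta, with the same NT libraries in each comparison. In Doxo relative to NT, 9 of the 41 genes were called lower and 0 higher, beside 4.63% and 6.06% of all tested genes, with a median log2 fold change of -0.28. The 9 genes were ATR (log2 fold change -1.10, adjusted p = 0.00219), FANCF (-1.001, adjusted p = 0.012), FANCD2 (-0.80), BRIP1 (-0.78), RAD54L (-0.77), BRCA1 (-0.69), BLM (-0.64), FANCE (-0.55) and EME1 (-0.53). In Doxo+Cyta relative to NT, 3 were called lower and 0 higher, beside 0.551% and 0.911%, with a median of -0.29. They were ATR (log2 ratio -1.06 ± 0.16, adjusted p = 0.0188), BRIP1 (log2 ratio -1.01 ± 0.22, adjusted p = 0.0399) and BRCA1 (log2 ratio -0.82 ± 0.17, adjusted p = 0.0394). All 0 counts of higher genes come from edgeR's quasi-likelihood test, and the Wald test of DESeq2 gave 0 higher and 12 and 7 lower. With DESeq2, 14.8% and 6.03% of all tested genes were called in either direction. H2AFX was called higher in Doxo than in NT in a fit of only these groups (log2 fold change 0.39, adjusted p = 0.0393) and without Doxo+Cyta 20 (0.36, adjusted p = 0.0222). At an unadjusted p under 0.05, 20 and 16 genes differed from NT in either direction, beside 28.3% and 20.4% of tested genes. At a fold over 2 and an adjusted p under 0.01, 1 gene, ATR, was lower in Doxo and 0 higher, beside 0.473% and 1.08%. These counts rest on few libraries: with either NT library left out, 1 gene was called in Doxo and 0 in Doxo+Cyta, without Doxo 4 the counts were 19 and 8, and without Doxo 5, Doxo 6 or Doxo+Cyta 20 the count in Doxo was 2, 3 or 15, the last of these 14 lower and H2AFX higher. The count in Doxo+Cyta was 1 without Doxo+Cyta 19 or 22 or without Doxo+Cyta+DAC 30, 32 or 33, beside at most 0.9% of all tested genes. Over all tested genes, 22.2% were called in Doxo and 5.04% in Doxo+Cyta without Doxo 4. In Doxo, 3.27%, 3.53% and 18.3% were called without Doxo 5, Doxo 6 or Doxo+Cyta 20. Calls over all tested genes were also few with either NT library left out. These swings were not particular to the 41 genes. Without Doxo 4 and Doxo+Cyta 20 together, 25 genes were lower and 1, H2AFX, higher in Doxo, beside 37.4% of tested genes called in either direction, and 15 were lower in Doxo+Cyta, beside 14.5%. ATR was the gene called lower in Doxo under every alternative fit. In bulk RNA, fewer cells with a transcript and less of it per cell cannot be told apart.

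Few of all tested genes differed between Doxo+Cyta and Doxo relapses, and 0 calls among the 41 is near that share. In Doxo+Cyta relative to Doxo, 0 of 41 genes were called by edgeR's quasi-likelihood test or by DESeq2, beside 1.07% of tested genes called higher and 2.32% lower, and 5 had an unadjusted p under 0.05, beside 18.9%. USP1 (log2 fold change -0.39, adjusted p = 0.12) and H2AFX (-0.33, adjusted p = 0.146) were the lowest, and FANCF (0.46), FANCE (0.32) and EME1 (0.24) the highest of these. The median over the 41 genes was -0.0038. H2AFX was called lower in Doxo+Cyta by the quasi-likelihood test when Doxo+Cyta 20 alone was left out (-0.47, adjusted p = 0.017). Without both libraries that stood apart, USP1 and H2AFX were called lower. In those fits 3.9% and 8.96% of all tested genes were called in either direction.

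Other repair genes, from lists that do not hold the 41 genes, moved in both directions when the Doxo+Cyta+DAC relapses were set against Doxo+Cyta. Of 122 tested genes in 6 lists, 57 were called higher and 25 lower, with a median log2 fold change of 0.27. These are 46.7% and 20.5%, beside 29.8% and 30.5% of all tested genes. Some of these genes, CLSPN among them, also belong to the S-phase and G2/M lists described below. Without those, 50 of 112 tested genes were called higher and 24 lower (44.6% and 21.4%). Among other recombination and Fanconi genes, 23 of 41 tested were called higher and 9 lower (56.1% and 22%). RAD52, a mediator of strand annealing, was the first of these by adjusted p and was lower (-1.91 relative to Doxo+Cyta and -1.71 relative to NT), while the ubiquitin enzymes RFWD3 (1.24) and UBE2N (1.26) were higher. Among other checkpoint genes, 12 of 20 (60%) were higher and 2, CDC25B and CDC25C, lower (10%), led by the phosphatase CDC25A (1.67), by CLSPN, the adaptor between ATR and CHEK1 (2.42), and by RAD1 of the 9-1-1 clamp (1.11). Of 13 genes of end joining, the pathway that rejoins breaks without a template, 4 were higher and 3 lower (30.8% and 23.1%), with the higher share near that of all genes. Its first genes were the polymerase POLL, which was lower (-1.31), and XRCC5 and XRCC6 of the Ku dimer, which were higher (0.73 and 1.05). Of 7 other mismatch repair genes, 3 were higher and 1 lower (42.9% and 14.3%). The replication clamp PCNA (1.31) and MLH3 (0.76) were among the higher ones. In base excision repair, 7 of 21 were higher and 6 lower (33.3% and 28.6%), which is about the share of all tested genes. The glycosylase TDG (1.61) and the flap nuclease FEN1 (1.69) were higher, and the glycosylase MPG (-1.16) was lower. Of 20 genes of nucleotide excision repair and direct reversal, 8 were higher and 4 lower (40% and 20%), with GTF2H1 (1.30), DDB1 (0.67) and GTF2H3 (0.74) first.

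Genes of S phase moved in the same libraries. Of 39 S-phase genes of the Seurat list that are not among the 41, 35 were called higher and 0 lower in Doxo+Cyta+DAC than in Doxo+Cyta, and 7 were called lower and 0 higher in Doxo relative to NT. The first count is 89.7%, beside 29.8% of all tested genes. Their mean log2 CPM was between 6.67 and 6.75 in the Doxo+Cyta+DAC libraries, between 5.94 and 5.98 in NT, between 5.55 and 5.73 in Doxo+Cyta, and 5.89, 5.42 and 5.46 in Doxo 4, 5 and 6. The mean of the 41 genes was between 5.58 and 5.61, between 5.35 and 5.40 and between 4.95 and 5.08 in those first 3 groups, and 5.21, 4.90 and 4.95 in the Doxo libraries, so that Doxo 4 was the highest of its group in both. Of 52 genes of the G2/M list, 14 were called higher and 19 lower relative to Doxo+Cyta (26.9% and 36.5%), near the 29.8% and 30.5% of all tested genes. More of them were lower in the other comparisons of Doxo+Cyta+DAC. Relative to Doxo, 9 were higher and 27 lower (17.3% and 51.9%, beside 29.1% and 30.4%). Relative to NT, 6 were higher and 20 lower (11.5% and 38.5%, beside 24.9% and 23.7%). BRIP1, EXO1, BLM and USP1 belong to both the 41 genes and the S-phase list, and of the other 37 genes 22 were called higher and 2 lower relative to Doxo+Cyta (59.5% and 5.41%, beside the same shares of all tested genes). The part of S phase in the levels of the 41 genes was not tested.

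**Figure D5:**
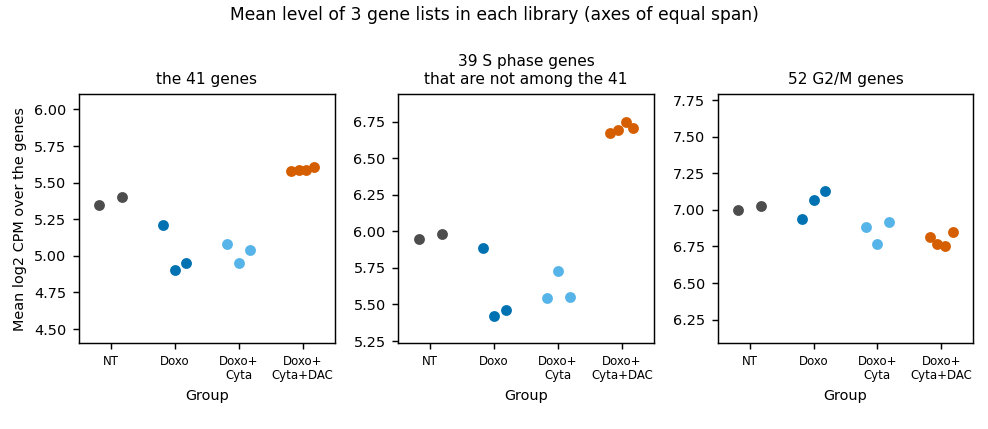
Mean log2 CPM in each library, on axes of equal span, over the 41 genes (left), over 39 S-phase genes that are not among them (middle) and over 52 G2/M genes (right). The 41 genes and the S-phase genes are highest in the 4 Doxo+Cyta+DAC libraries (5.58 to 5.61 and 6.67 to 6.75), and the G2/M genes are not.

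Per length, the levels of the 41 genes spanned a wide range. As mean CPM per kilobase of exon over the 12 libraries, H2AFX (162) and PARP1 (122) were the most abundant, followed by UBE2T (49.4), USP1 (40.4), FANCI (39.8) and CHEK1 (36.3). FANCM (1.04), BRCA2 (1.44) and FANCB (1.68) were the least abundant, and XRCC2 (2.73) and ATR (2.91) also lay in the lower part. Between libraries of a group, the median SD of log2 CPM was 0.11 over the 41 genes and 0.17 over all tested genes in Doxo+Cyta+DAC, and 0.20 in Doxo and 0.23 in Doxo+Cyta, beside 0.20 and 0.24. The widest spreads were those of XRCC2 in Doxo, where the highest library held 2.97 times the lowest, and of FANCM in Doxo+Cyta, where it held 2.37 times.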

How the data were processed

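RNA of 12 HEL cultures was sequenced. According to the submitters' processing notes and the study's methods, the authors aligned reads to GRCh38 with Bowtie2 2.2.8, which does not split reads over introns, and deposited raw counts of fragments per gene from featureCounts 1.6.0, without use of strand, so that reads across exon junctions may be lost and overlapping genes on opposite strands cannot be told apart. Of 26485 genes, 4 with a missing count were left out. Library totals lay between 12763582 and 19106235.

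From these counts, all 12 libraries were fitted in 1 model with edgeR 4.0.16 (R 4.3.3): filterByExpr kept 14164 genes, scaling was by TMM, and the quasi-likelihood test gave p-values adjusted over all tested genes by Benjamini-Hochberg, with calls at an adjusted p under 0.05. All tests were two-sided. CPM use TMM library sizes, and means of log2 CPM a prior count of 2. The study's methods describe biological replicates of each treatment. Groups came from the labels, which name 2 untreated libraries and no batches. Values of every library are given for the 2 genes of each of 9 role groups with the smallest adjusted p in Doxo+Cyta+DAC against Doxo+Cyta, and for genes called opposite to most called genes of a comparison. Of other lists, the 3 genes with the smallest adjusted p are named, except an item that is not reported here, beside CDC25B and CDC25C, which were chosen after their values were seen. The members and lists were chosen with earlier results of these data known. Alternatives were DESeq2 1.42.0, other scalings and filters, a fit of only the groups compared, and leaving out each library. The steps were tested on simulated data.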

Additional observations from a re-analysis of the deposited data

Results flagged for a closer look

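RAD54L, a motor protein of strand exchange, was at 58.7 CPM in Doxo+Cyta+DAC replicate 31, while the other 3 libraries of that group lay between 71.1 and 73.3 CPM. The gap was 0.849 of the range of the group. All 41 genes were examined in this way in the group of 4 libraries, and chance alone flags about 5% of groups.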

How the results depend on the processing

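Members called in Doxo+Cyta+DAC kept their direction under 19 alternative fits, and of those called relative to Doxo+Cyta 27 of 28 stayed called in each fit, RAD51D being the exception without Doxo+Cyta 19 (adjusted p = 0.0563). Relative to Doxo, 26 of 31 stayed called, relative to NT 9 of 17, and of the genes lower than NT in Doxo and Doxo+Cyta 1 of 9 and 0 of 3. With a fold over 2 and an adjusted p under 0.01, 9 genes were called relative to Doxo+Cyta, 7 relative to Doxo and 2 relative to NT, and 1 and 0 in Doxo and Doxo+Cyta relative to NT. Doxo+Cyta relative to NT gave 7 genes with DESeq2 and 0 in a fit of only the groups compared. Of all tested genes, 6.03% and 0.0951% were called in these 2 fits, so that the 0 is no result about the 41 genes. Without Doxo 4 and Doxo+Cyta 20, a choice made after seeing the data, 26 and 15 genes were called in Doxo and Doxo+Cyta relative to NT, and 2 in Doxo+Cyta relative to Doxo. With 1 library left out, the counts ran from 1 to 19 in Doxo relative to NT, from 0 to 8 in Doxo+Cyta relative to NT, from 9 to 22, 27 to 32 and 27 to 31 in Doxo+Cyta+DAC relative to NT, Doxo and Doxo+Cyta, and from 0 to 1 in Doxo+Cyta relative to Doxo. The share of all tested genes called also moved between these fits. The causes were not tested. With 2 untreated libraries, leaving out 1 assumes that the other varies like the remaining groups. No paired analysis was possible because the groups share no replicate numbers.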
